A study of Caenorhabditis elegans with 104 samples.

Results

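The insulin signalling core was followed in single adult worms of Caenorhabditis elegans at 7 ages. It was taken as 10 genes chosen by their sequence names on the array. These are the receptor gene daf-2 (Y55D5A.5), the adaptor gene ist-1 (C54D1.3), the kinase genes age-1 (B0334.8), pdk-1 (H42K12.1), akt-1 (C12D8.10), akt-2 (F28H6.1) and sgk-1 (W10G6.2), the kinase adaptor gene aap-1 (Y110A7A.10), the phosphatase gene daf-18 (T07A9.6) and the transcription factor gene daf-16 (R13H8.1). All 10 were measured, by 23 of the array's 22490 probes (18889 sequence names). daf-2, ist-1, age-1, aap-1, daf-18 and sgk-1 had 1 probe each, while pdk-1 had 4, akt-1 and akt-2 had 3 each and daf-16 had 7. Probes of 1 gene were kept apart and are called by the splice letter of the array's design (a to d), which may differ from the isoform names used today.

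All worms were wild type (N2), fed bacteria on plates at 20 °C, and came from 1 population started by a short timed egg lay. Worms alive at days 4, 8, 12, 14, 16, 20 and 24 were frozen singly, with 13, 17, 17, 17, 17, 14 and 9 worms in these groups. Every worm was hybridised in Cy5 on a 2-colour array against the same Cy3-labelled pool of RNA from 15 wild-type worms aged 4 days. Each age is 1 harvest of 1 cohort, so age and harvest cannot be told apart, and the p-values below rest on differences among worms of a single cohort.

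Insulin-like peptides bind the receptor DAF-2, which acts through the adaptor IST-1 and the phosphoinositide 3-kinase made of AGE-1 and AAP-1. The lipid that this kinase makes recruits PDK-1, AKT-1 and AKT-2, and the phosphatase DAF-18 removes it. PDK-1 activates the AKT kinases and SGK-1. Active AKT kinases keep the FOXO transcription factor DAF-16 out of the nucleus, and loss of daf-2 or age-1 function is known for long life that depends on daf-16. Much of this control acts on protein phosphorylation and location, which an RNA array does not measure.

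Values are log2 ratios of a worm over the pool, so that a value of 0 is the level of the pool and a difference of 1 stands for a ratio of 2. The scale and the direction (worm over pool) are read from the usual output of the tool named by the submitters and from the design, and no label or header states them. With the opposite direction every rise below would be a fall. Probe levels are relative to the pool and say nothing of which gene is more abundant. In RNA of whole worms, fewer cells of a tissue and less RNA per cell cannot be told apart. Array medians lay between -0.03 and 0.01, and 9 to 464 values per array were missing, among them 4 values of these 23 probes. Pairs of arrays correlated between -0.062 and 0.669 over all probes, with a median of 0.272.

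The members did not move as 1 group. The slope over age in days, fitted with limma on all probes, was called at an adjusted p under 0.05 for 7 probes that rose and 3 that fell. The same was true of 26.6% of all probes in either direction (13.2% higher and 13.5% lower). Rises were called for daf-2, ist-1, age-1, akt-2, daf-16 (1 of 7 probes) and akt-1 (probe c), and falls for daf-18, sgk-1 and akt-1 (probe b). The median slope of the 23 probes was 0.0093 per day, against -0.0002 over all probes. A moderated F test for any difference among ages called 8 of the 23 probes, of 7 genes, against 31.5% of all probes.

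Most called steps lay before day 12. Between days 4 and 8, 4 probes rose and 1 fell, against 10.7% of all probes in either direction (4.92% higher and 5.74% lower). Between days 8 and 12, 1 rose and 2 fell, against 14.9% (7.55% higher and 7.38% lower). In the successive steps from day 12 on, which were chosen after seeing the data, 0 of the 23 probes were called by limma. In these steps 1 or 2 probes had an unadjusted p under 0.05, and over all probes the called share was 0%, 0.0133%, 0.218% and 0%. Few probes of any kind were thus called between neighbouring later ages. Set against day 4, 4 probes were higher and 1 lower at day 12 (21.3% of all probes, 10.9% higher and 10.4% lower), and 6 were higher and 0 lower at day 14 (19.3%, 10.2% and 9.14%). At day 16 it was 4 and 0 (19.1%, 9.8% and 9.3%), at day 20 it was 5 and 0 (19.4%, 9.58% and 9.83%) and at day 24 it was 5 and 1 (15.6%, 8.09% and 7.49%). These comparisons share the day 4 worms, and the members' median differences were 0.26, 0.20, 0.19, 0.29 and 0.27 in the same order, against -0.0067 to -0.0005 over all probes.

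**Figure D1:**
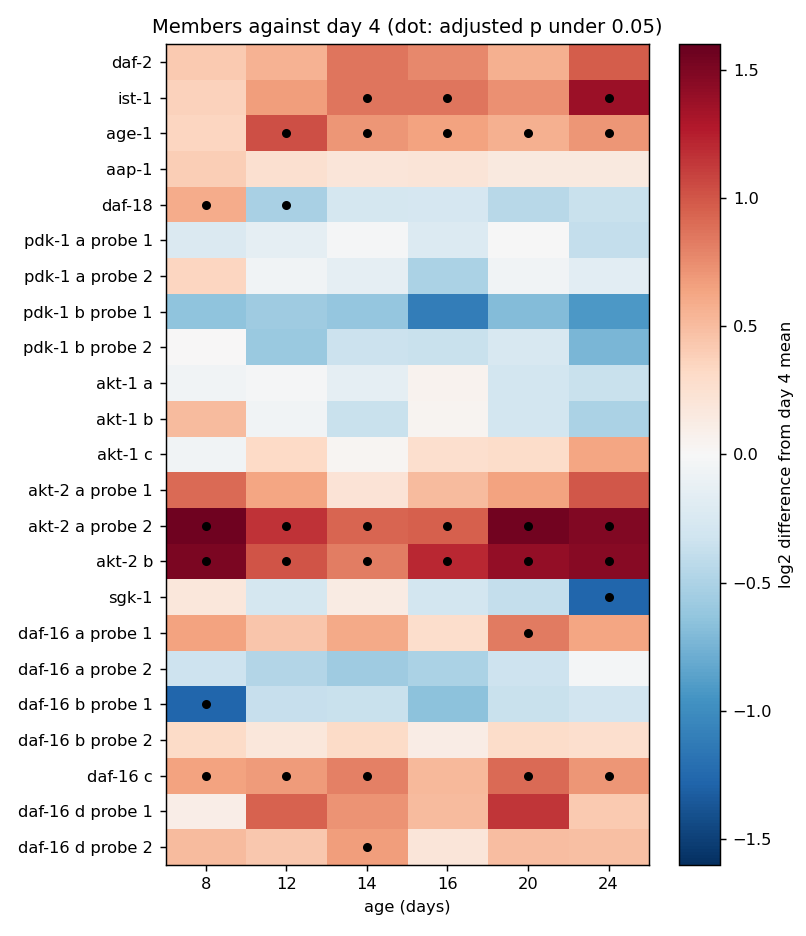
Differences of the 23 probes from day 4 (colour, log2, red higher) at each later age in days, with a dot where limma's adjusted p was under 0.05. akt-2 b and a probe 2 carry dots at every age from day 8 on, age-1 from day 12 on, and sgk-1 at day 24 alone.

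The receptor gene daf-2 had a slope that just passed the test and differed widely between worms. The 13 worms of day 4 lay between -2.29 and 1.65 with a median of 0.53, and the 17 worms of day 8 between -1.24 and 2.55 with a median of 0.39. Medians at days 12, 14, 16 and 20 were 0.72, 1.11, 0.94 and 1.09, and the 9 worms of day 24 ran from 0.41 to 1.94 with a median of 1.46. At day 4, 8 of 13 worms were above the pool, and at days 16 and 24 all 17 and all 9 were. At day 20 it was 13 of 14, with the lowest worm at -3.41. The ranges of days 4 and 24 overlapped, with 3 of the day 24 worms above the highest day 4 worm. The slope was 0.0393 ± 0.0153 per day (SE, limma adjusted p = 0.0448), while day 24 against day 4 gave 0.97 ± 0.39 (SE, adjusted p = 0.0791) and the F test was not called. The slope lost its call in the absence of any 1 of the days 4, 8, 12, 14, 16 or 24 (adjusted p = 0.407, 0.057, 0.0568, 0.0651, 0.0788 and 0.107, slopes 0.025 to 0.041).

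ist-1, which encodes an insulin receptor substrate homologue, rose over the span. Its lowest, median and highest values were -2.85, -0.22 and 1.08 at day 4, and 0.35, 0.97 and 2.61 at day 24. Between these ages the medians were 0.32, 0.37, 0.45, 0.63 and 0.51 at days 8, 12, 14, 16 and 20. All 9 worms of day 24 lay above the day 4 median and 4 lay above the highest day 4 worm. The slope was 0.0562 ± 0.0124 per day (SE, limma adjusted p = 0.00019), and day 24 exceeded day 4 by 1.37 ± 0.31 (SE, adjusted p = 0.00071). Days 14 and 16 also exceeded day 4, by 0.85 and 0.86 (adjusted p = 0.0147 and 0.0132), and days 8, 12 and 20 did not pass.

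age-1, the catalytic subunit of the phosphoinositide 3-kinase, rose up to day 12, where its mean was highest, and stayed above day 4. Its values ran from -0.43 to 0.74 at day 4 (median 0.24), from -0.46 to 1.13 at day 8 (median 0.56) and from 0.31 to 2.50 at day 12 (median 1.04). Of the 17 day 12 worms, 14 lay above the highest day 4 worm and 8 above the highest day 8 worm. The medians at days 14, 16, 20 and 24 were 0.75, 0.84, 0.76 and 0.78, and all of the worms at days 12, 14, 20 and 24 lay above the pool. The step from day 12 to day 14 was not called (-0.32, limma adjusted p = 0.831), and days 16, 20 and 24 were not compared with day 12. The step from day 8 to day 12 was 0.69 ± 0.16 (SE, limma adjusted p = 0.0014), and day 12 exceeded day 4 by 1.04 ± 0.18 (SE, adjusted p = 2.12e-06). Differences from day 4 were 0.71, 0.64, 0.57 and 0.71 at days 14, 16, 20 and 24, all called (adjusted p = 0.00139, 0.00425, 0.0163 and 0.0097). The slope of 0.0284 per day (adjusted p = 0.0117) does not stand for a steady rise, and was 0.007 in the absence of day 4 (adjusted p = 0.742) and lost its call without day 8 (0.0251, adjusted p = 0.0682).

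The mean level of epidermal markers was also higher from day 12 on. The mean of 18 probes of 14 epidermal genes was -0.10 at day 4 (from -0.56 to 0.33), -0.05 at day 8 (from -0.52 to 0.67), 0.29 at day 12 (from -0.17 to 0.91) and 0.26 at day 24. Single probes went both ways, with 1 higher and 0 lower at day 12 than at day 8, against 7.55% and 7.38% of all probes. At day 12 against day 4, 7 were higher and 4 lower (10.9% and 10.4% of all probes). Of these 18 differences, 9 were above 0, with a median of 0.07. At day 24 against day 4, 3 were higher and 3 lower (8.09% and 7.49% of all probes), with a median of 0.03. The rise in the mean was thus uneven. The part of the epidermis in the age-1 values was not tested, beyond the relation within ages given below.

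No age call was made for aap-1, the adaptor subunit of the same kinase, in any of these tests. Its medians were -0.70, -0.43, -0.67, -0.69, -0.63, -0.81 and -0.84 at the 7 ages in order, and the groups overlapped throughout. The slope was -0.0009 ± 0.0068 per day (SE, limma adjusted p = 0.945), and day 8 against day 4 gave 0.39 ± 0.14 (SE, adjusted p = 0.0642). It lay below the pool in all 13 day 4 worms, from -1.70 to -0.02, although the pool was of the same age. That difference was -0.86 ± 0.11 (SE, limma adjusted p = 8.94e-10), the smallest p of the members against the pool.

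daf-18, the phosphatase that opposes age-1, was higher at day 8 and lower from day 12 on. The day 4 worms ran from -1.80 to 0.65 with a median of -0.50, and the day 8 worms from -0.88 to 1.49 with a median of 0.02. At day 12 they ran from -1.87 to -0.33 with a median of -0.91, and the medians of days 14, 16, 20 and 24 were -0.71, -0.86, -0.91 and -0.67. All 17 day 12 worms lay below the day 8 median and 9 of them below the lowest day 8 worm. The fall from day 8 to day 12 was -1.12 ± 0.18 (SE, limma adjusted p = 3.02e-06). Day 8 exceeded day 4 by 0.59 ± 0.20 (SE, adjusted p = 0.0344) and day 12 was lower than day 4 by a difference of -0.52 ± 0.20 (SE, adjusted p = 0.0414). At days 14, 16, 20 and 24 no difference from day 4 was called, and the slope of -0.0382 per day (adjusted p = 0.00216) fell short without day 8 (-0.0165, adjusted p = 0.259). The call for day 8 against day 4 was lost in the absence of any 1 of 8 worms, namely day 4 replicates 6, 7, 8, 10 and 11 and day 8 replicates 8, 10 and 16, at 0.48 to 0.56 (adjusted p = 0.0549 to 0.101).

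The mean level of germline markers was likewise highest at day 8 and lower from day 12 on. The mean of 30 probes of 23 germline and oocyte genes was -0.08 at day 4 (from -0.60 to 0.25), 0.32 at day 8 (from -0.30 to 0.94) and -0.57 at day 12 (from -1.62 to 0.44). Between days 4 and 8, 4 of these 30 probes rose and 0 fell, against 4.92% and 5.74% of all probes. Between days 8 and 12, 0 rose and 21 fell, against 7.55% and 7.38%, among them puf-5, an RNA-binding protein gene of oocytes (-1.78 ± 0.28, SE, limma adjusted p = 1.8e-06). The part of these cells in the daf-18 values was not tested here, beyond the relation between single worms of 1 age given below.

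**Figure D2:**
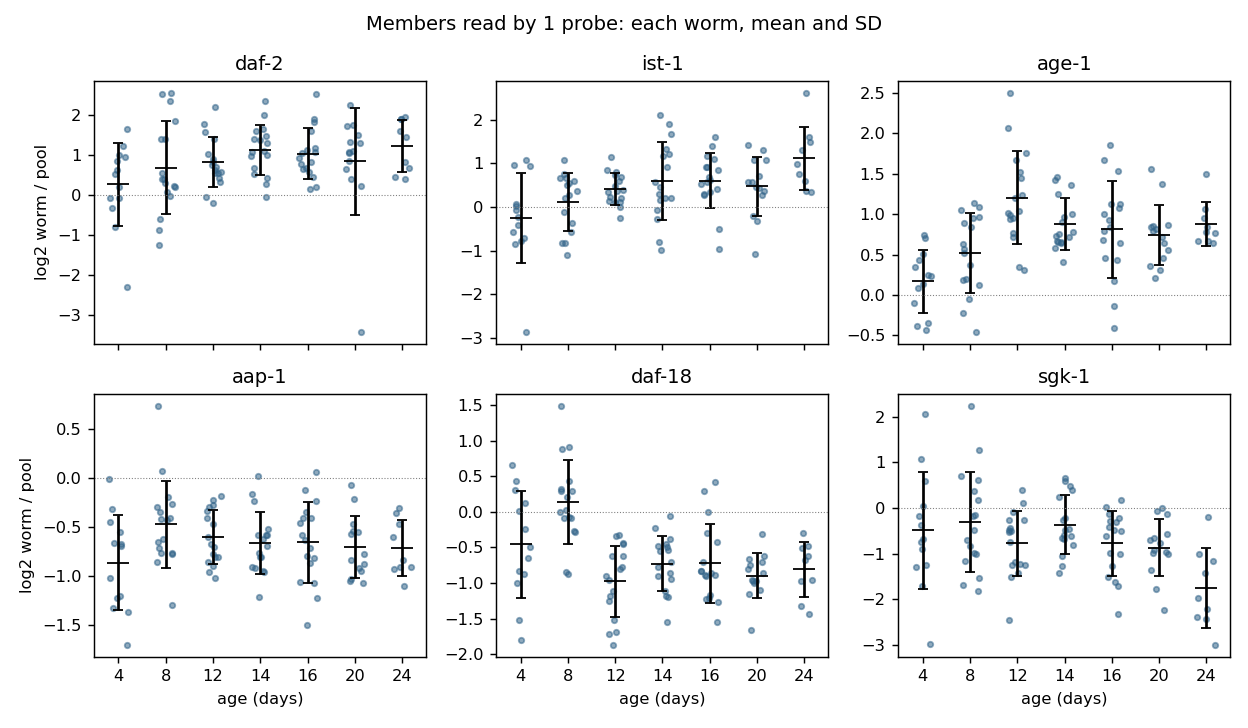
Log2 ratio over the pool of the 6 members with 1 probe, by age in days (points are worms, bars the mean and SD). The step of age-1 at day 12, the drop of daf-18 between days 8 and 12 and the low sgk-1 values at day 24 stand out, while aap-1 had no called difference between ages.

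pdk-1, the kinase that activates the AKT kinases and SGK-1, had no called probe in any comparison. The 4 probes had slopes of -0.0062, -0.0218, -0.0388 and -0.0287 per day (a probes 1 and 2, b probes 1 and 2; limma adjusted p = 0.841, 0.264, 0.155 and 0.152). Worms scattered widely: at day 4, b probe 1 ran from -0.96 to 3.23 with a median of 0.46, and b probe 2 from -0.83 to 3.10 with a median of 0.02. At day 24 they ran from -2.39 to 0.94 (median 0.05, 8 worms) and from -0.89 to 0.15 (median -0.60). 1 worm of day 14 read 6.07 on a probe 1, where the median was -0.18. Deviations from the age mean did not go together between the 4 probes, with r from -0.084 to 0.095 over the 6 pairs of probes. As a mean over the 4 probes, however, pdk-1 fell by 0.0232 per day (limma adjusted p = 0.0236) and was lower at day 16 than at day 4, at -0.55 ± 0.17 (SE, adjusted p = 0.0163).

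akt-2 rose between days 4 and 8 by more than any other member and stayed high. On the b probe the day 4 worms ran from -1.33 to 0.82 with a median of -0.43 and the day 8 worms from -0.74 to 2.55 with a median of 1.13. On a probe 2 the day 4 range was -1.76 to 0.33 (median -0.52) and the day 8 range -0.64 to 2.57 (median 0.80). Of the 17 day 8 worms, 11 on the b probe and 12 on a probe 2 lay above the highest day 4 worm. Day 8 exceeded day 4 by 1.51 ± 0.23 on the b probe and by 1.56 ± 0.27 on a probe 2 (SE, limma adjusted p = 6.25e-07 and 7.99e-06). Leaving out each worm of these ages in turn kept both calls.

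Later worms stayed above day 4 on both probes. Medians of the b probe were 0.68, 0.41, 0.68, 0.99 and 1.13 at days 12, 14, 16, 20 and 24, and those of a probe 2 were 0.48, 0.17, 0.23, 0.77 and 0.75. The dip around day 14 was not tested directly, since day 14 was not compared with day 8. The step from day 8 to day 12 was -0.50 ± 0.22 on the b probe (SE, adjusted p = 0.111), and no later step passed. Day 24 exceeded day 4 by 1.46 ± 0.28 on the b probe and by 1.48 ± 0.32 on a probe 2 (SE, limma adjusted p = 3.7e-05 and 0.00027), with all 9 worms above the day 4 median on each. Both slopes, 0.0479 and 0.0471 per day (adjusted p = 0.00158 and 0.00625), rested on day 4: without it they were 0.0074 and 0.004 (adjusted p = 0.795 and 0.911). The third probe, a probe 1, differed from day 4 by 0.91 ± 0.34 at day 8 (SE, adjusted p = 0.0716) and was not called at any age in the main analysis. It was called at day 24 with array weights (1.21, limma adjusted p = 0.028), and at days 8 and 24 when some single worms were left out. The 3 probes nevertheless varied together among worms of 1 age (r = 0.572 and 0.646 for a probe 2 with a probe 1 and b, and 0.341 for the remaining pair), and no difference between their courses was called.

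akt-1, the other AKT kinase gene, had a probe with a called fall and a probe with a called rise over age. Probe b had a median of -0.46 at day 4 (from -1.50 to 0.85), -0.02 at day 8 (from -0.69 to 0.73), -0.45 at day 12 (from -1.65 to 0.65) and -1.10 at day 24 (from -2.11 to 0.03). Probe c had medians of 0.07, 0.20 and 0.27 at days 4, 8 and 12 and of 0.58 at day 24 (from -0.18 to 1.66, 8 of 9 worms above the pool). Probe a stayed below the pool, with medians from -1.59 to -1.17 and no call over age. Probe b fell by 0.0354 per day (limma adjusted p = 0.00388) and by 0.57 ± 0.19 from day 8 to day 12 (SE, adjusted p = 0.028), and probe c rose by 0.0282 (adjusted p = 0.0446).

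The difference in course was tested directly by fitting each probe minus the mean of the gene's other probes. Over the slope, c rose relative to a and b by 0.0553 ± 0.0146 per day (SE, limma adjusted p = 0.0038) and b fell relative to a and c by 0.0385 ± 0.0132 per day (SE, adjusted p = 0.0327). These were 2 of the 17 member probes tested in this way, against 15.5% of 4478 such rows on the array, and 0 were probes of akt-2, pdk-1 or daf-16 (2 of the 17 had an unadjusted p under 0.05). The F test on these differences called the same b and c probes (adjusted p = 0.0327 and 0.0497), against 15.9% of the array's. Each of the 2 probes is part of the mean that the other is set against, so these calls are not independent. Under quantile normalization or with array weights, fewer member probes were called for a difference between probes. Deviations of the 3 akt-1 probes from the age mean were unrelated (r from -0.141 to 0.048), and the mean over the probes had no called slope (-0.0092, adjusted p = 0.368). The slope of c alone was fragile, for it lost its call without any 1 of the days 4, 8, 16, 20 or 24 (0.0335, 0.0248, 0.028, 0.0311 and 0.0218, adjusted p = 0.0737, 0.157, 0.0556, 0.0591 and 0.246), and that of b lost it without day 8 (-0.0207, adjusted p = 0.187). What each probe hybridises to was not analysed here.

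**Figure D3:**
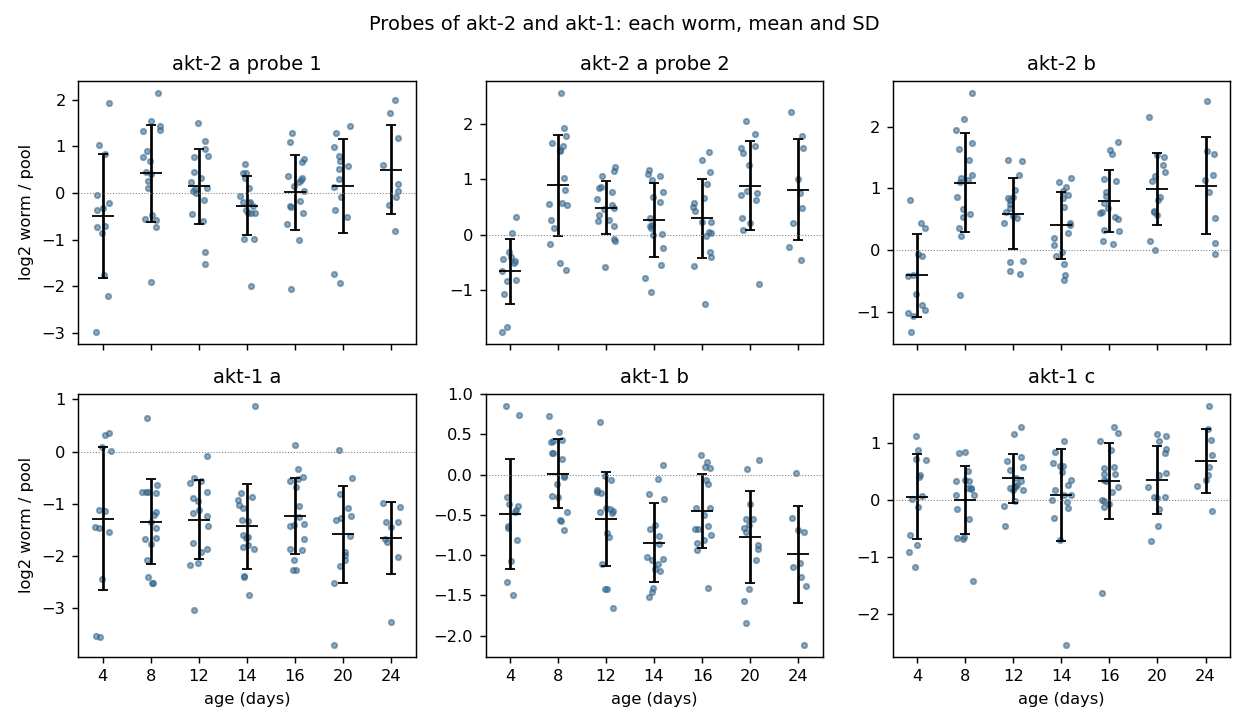
Log2 ratio over the pool of the 3 akt-2 probes (top) and the 3 akt-1 probes (bottom), by age in days (points are worms, bars the mean and SD). The akt-2 b and a probe 2 values step up after day 4, and akt-1 b drifts down while akt-1 c drifts up.

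sgk-1, a kinase related to the AKT kinases, was lowest in the oldest worms. Its values at day 4 ran from -2.98 to 2.05 with a median of -0.67, and at day 20 from -2.23 to 0.0005 with a median of -0.85. The 9 worms of day 24 ran from -3.0 to -0.20 with a median of -1.98, and 8 of them lay below the day 4 median. Day 24 was lower than day 4 by a difference of -1.27 ± 0.37 (SE, limma adjusted p = 0.0104), and no other age differed from day 4. The slope of -0.0517 ± 0.0150 per day (SE, adjusted p = 0.00508) rested on day 24, being -0.0284 without it (adjusted p = 0.252). With a fit to the worms of days 4 and 24 alone, day 24 against day 4 was not called (adjusted p = 0.0818).

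The mean level of intestinal markers was also lowest in the oldest worms. The mean of 20 probes of 13 measured intestinal genes was -0.36 at day 4 (from -1.92 to 0.78), -1.01 at day 20 (from -1.79 to 0.41) and -1.30 at day 24 (from -2.18 to 0.28). Of these 20 probes, 0 rose and 4 fell between days 4 and 24, against 8.09% and 7.49% of all probes, and 8 of the 20 differences were above 0, with a median of -0.24. The fall in the mean was thus uneven, with differences of -3.56 ± 0.51 for spp-3, a saposin-like gene, -2.34 ± 0.81 for cpr-1, a protease gene, and -1.72 ± 0.47 for a probe of vha-6, a proton pump subunit of the gut (SE, limma adjusted p = 5.96e-08, 0.0348 and 0.00561). The part of the intestine in the sgk-1 values was not tested, beyond the relation within ages given below.

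daf-16 was read by 7 probes, which fell into a set of 4 that varied together and 3 that did not. Among worms of 1 age, the deviations of a probe 1, b probe 2, c and d probe 2 correlated with r from 0.513 to 0.834 over their 6 pairs, while all pairs with a probe 2, b probe 1 or d probe 1 lay between -0.161 and 0.209. This grouping was made after the values were seen and is a description. The 4 probes share a level near the pool at day 4 (medians 0.28, 0.09, -0.05 and -0.22 in the order above) and higher medians at day 20 (1.06, 0.36, 1.03 and 0.67).

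Within the set of 4, probe c had the most calls. Its worms ran from -1.56 to 1.48 at day 4 (median -0.05), from -0.96 to 1.59 at day 8 (median 0.87) and from 0.28 to 1.6 at day 20 (median 1.03). Differences from day 4 were 0.64 ± 0.21 at day 8, 0.68 ± 0.21 at day 12, 0.80 ± 0.21 at day 14, 0.91 ± 0.22 at day 20 and 0.71 ± 0.25 at day 24 (SE, limma adjusted p = 0.0337, 0.0118, 0.00288, 0.0011 and 0.0379), and day 16 did not pass. At day 20 all 14 worms, and at day 24 all 9, lay above the day 4 median. a probe 1 was called at day 20 only (0.84 ± 0.25, SE, adjusted p = 0.0111), d probe 2 at day 14 only (0.67 ± 0.22, SE, adjusted p = 0.0167) and b probe 2 at no age. A difference between the courses of the 7 probes was not called.

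The calls of probe c for days 8 and 24 lay near the threshold, with differences of 0.51 to 0.76 and 0.57 to 0.82 when single worms were left out. For day 8 the call was lost in the absence of any 1 of day 4 replicates 1, 3, 7, 8 and 10 and day 8 replicates 2, 6, 11 and 17, at 0.51 to 0.63 (limma adjusted p = 0.05 to 0.114). For day 24 it was lost in the absence of any 1 of day 4 replicates 1, 3, 7, 9 and 10 and day 24 replicates 1, 5, 6, 7 and 8, at 0.57 to 0.69 (adjusted p = 0.0538 to 0.103). The slope of c, 0.0306 ± 0.0101 per day (SE, adjusted p = 0.0158), was 0.0087 without day 4 (adjusted p = 0.673) and 0.0269 without day 20 (adjusted p = 0.09). As a mean over all 7 probes the gene had a slope of 0.0175 (adjusted p = 0.0475) and differed from day 4 at day 20 alone (0.43 ± 0.15, SE, adjusted p = 0.0365).

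Among the other 3 probes, b probe 1 was lower at day 8 than at day 4. It ranged from -1.07 to 2.34 at day 4 (median 0.51, 11 of 13 worms above the pool) and from -2.62 to 1.11 at day 8 (median -0.06, 5 of 17 above). Day 8 was lower by a difference of -1.27 ± 0.36 (SE, limma adjusted p = 0.0111), and at day 12 the median was 0.56 again (step 0.90 ± 0.34, SE, adjusted p = 0.0546). Neither a probe 2 nor d probe 1 was called over age, and the day 4 worms on d probe 1 spread from -3.78 to 1.35. The mean over all probes did not show the fall seen on b probe 1, with a difference of 0.09 between days 4 and 8 (adjusted p = 0.783). Set against the mean of the other daf-16 probes, b probe 1 had no called difference among ages (F test, limma adjusted p = 0.0742).

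**Figure D4:**
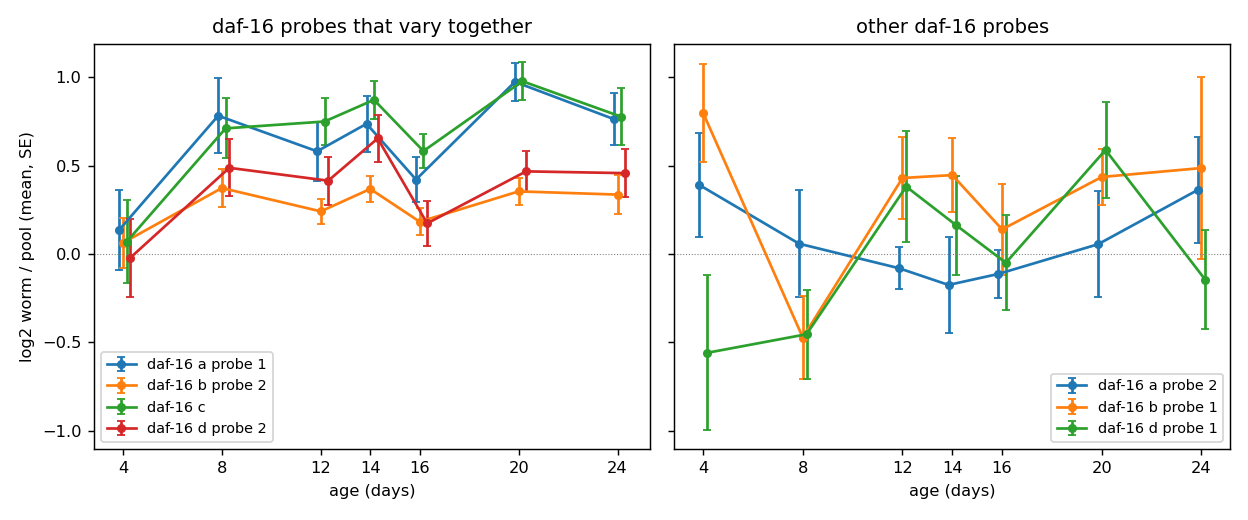
Mean log2 ratio over the pool (bars are SE) of the 7 daf-16 probes by age in days, with the 4 probes that varied together between worms on the left and the other 3 on the right. On the left all 4 lie above their day 4 mean at every later age; on the right b probe 1 falls from 0.80 to -0.47 between days 4 and 8 and returns.

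The pool was of the age of the youngest worms, so that day 4 against the pool holds no difference in age. Every worm was labelled in Cy5 and the pool in Cy3 without a dye swap, so dye, and a single worm against pooled RNA, cannot be told apart from a difference in level here. Of the 23 probes, 1 was higher and 5 lower, against 18.4% of all probes in either direction (7.79% higher and 10.6% lower). daf-16 b probe 1 was higher (0.80 ± 0.27, SE, limma adjusted p = 0.0273). The lower ones were aap-1, akt-1 a (-1.28 ± 0.25, adjusted p = 5.03e-05), akt-1 b (-0.49 ± 0.15, adjusted p = 0.0141), akt-2 a probe 2 (-0.66 ± 0.20, adjusted p = 0.0119) and daf-18 (-0.45 ± 0.15, adjusted p = 0.019). The other akt-2 probes were not called, at -0.41 ± 0.18 on the b probe and -0.49 ± 0.26 on a probe 1 (SE, adjusted p = 0.0931 and 0.194).

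The spread between worms of 1 age was not seen to change over age for any member. Of the 23 probes, 0 became wider and 0 narrower by limma on the absolute deviations, against 0.00889% and 0.618% of all probes (6 of the 23 at an unadjusted p under 0.05). The SD of daf-18 was 0.75 at day 4 and 0.39 at day 24, and that of sgk-1 1.28 and 0.87 (slope adjusted p = 0.133 and 0.251). The smallest p was that of daf-16 d probe 2, with an SD of 0.80 at day 4 and 0.41 at day 24 (adjusted p = 0.0797).

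Members were then set against each other among worms of 1 age, as deviations of the mean over their probes from the age mean. Of 45 pairs, 0 were called with 100000 permutations within ages and Benjamini-Hochberg adjustment, and 7 had an unadjusted p under 0.05. The pairs with the smallest p were akt-2 with daf-16 (r = -0.322, rho = -0.265, permutation p = 0.00216), daf-2 with akt-2 (r = -0.309, rho = -0.224, p = 0.00365) and age-1 with daf-18 (r = -0.294, rho = -0.237, p = 0.00445), each with an adjusted p of 0.0667. Without the 2 worms farthest from the median, r was -0.275, -0.295 and -0.218. Of all sequence names, 5.38% had an r as far from 0 with akt-2 and 2.93% with daf-16 as this pair had. The shares were 0.45% with daf-2 and 6.2% with akt-2 for the second pair, and 8.13% with age-1 and 10.9% with daf-18 for the third.

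No relation was called between daf-16 RNA and textbook DAF-16 targets among worms of 1 age. The mean over its probes and each probe were set against 8 targets (sod-3, mtl-1, hsp-12.6, lys-7, dod-3, ctl-2, vit-2 and vit-5), which gave 64 relations, of which 0 were called and 5 had an unadjusted permutation p under 0.05. The smallest p was that of a probe 2 with the superoxide dismutase gene sod-3 (r = -0.337, rho = -0.366, p = 0.00178, adjusted p = 0.114, n = 103). Over age, some targets had wide steps between days 4 and 8: mtl-1, a metallothionein gene, had a median of -0.69 at day 4 and 4.38 at day 8, and lys-7, a lysozyme gene, of -1.45, 3.0 and -1.47 at days 4, 8 and 12. The median of dod-3 went from -0.26 at day 4 to 3.41 at day 8. The other targets had no such rise, with 0.35 and -0.09 for sod-3, 0.42 and 0.31 for hsp-12.6 and -0.11 and -0.19 for ctl-2. For vit-2 these medians were 0.42 and -0.80, and for vit-5 they were 0.59 and -0.04. At days 4, 8 and 12 the daf-16 medians were -0.05, 0.87 and 0.74 on probe c, and 0.51, -0.06 and 0.56 on b probe 1.

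Members and tissue markers were compared in the same way, which was chosen after seeing the data. Of 70 relations between the 10 genes and 7 marker lists, 8 were called with 100000 permutations within ages and Benjamini-Hochberg adjustment. The highest was sgk-1 with the intestinal markers (r = 0.568, rho = 0.593, adjusted p = 0.000233), followed by daf-18 with the germline and oocyte markers (r = 0.476, rho = 0.494, adjusted p = 0.000233) and age-1 with the epidermal markers (r = 0.433, rho = 0.438, adjusted p = 0.000233). The permutation p of these r values, 1e-05, is the smallest that the permutations can give. All 3 were positive within each of the 7 ages, from 0.256 to 0.764, from 0.108 to 0.772 and from 0.208 to 0.757, and held without the 2 worms farthest from the median (0.594, 0.533 and 0.428). The share of all genes that go with these lists as strongly is not given here. Whether the 8 calls are particular to the members is therefore not known.

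The other 5 called relations were weaker. daf-18 was lower in worms with more intestinal marker signal (r = -0.368, rho = -0.357, adjusted p = 0.00647), above 0 at 1 of the 7 ages. The mean of akt-2 was lower in worms with more sperm marker signal (r = -0.328, rho = -0.295, adjusted p = 0.0226), also above 0 at 1 of the 7 ages, and ist-1 went with the body wall muscle markers (r = 0.326, rho = 0.233, adjusted p = 0.0226), above 0 at 5 of 7. aap-1 went with the germline markers (r = 0.277, rho = 0.222, adjusted p = 0.0324), above 0 at 6 of 7, and against the intestinal markers (r = -0.296, rho = -0.325, adjusted p = 0.0283), above 0 at 0 of 7. Without the 2 farthest worms these were -0.376, -0.302, 0.252, 0.249 and -0.297. Marker levels here are ratios over the pool, so they show how worms differ and not how much of a tissue a worm holds.

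**Figure D5:**
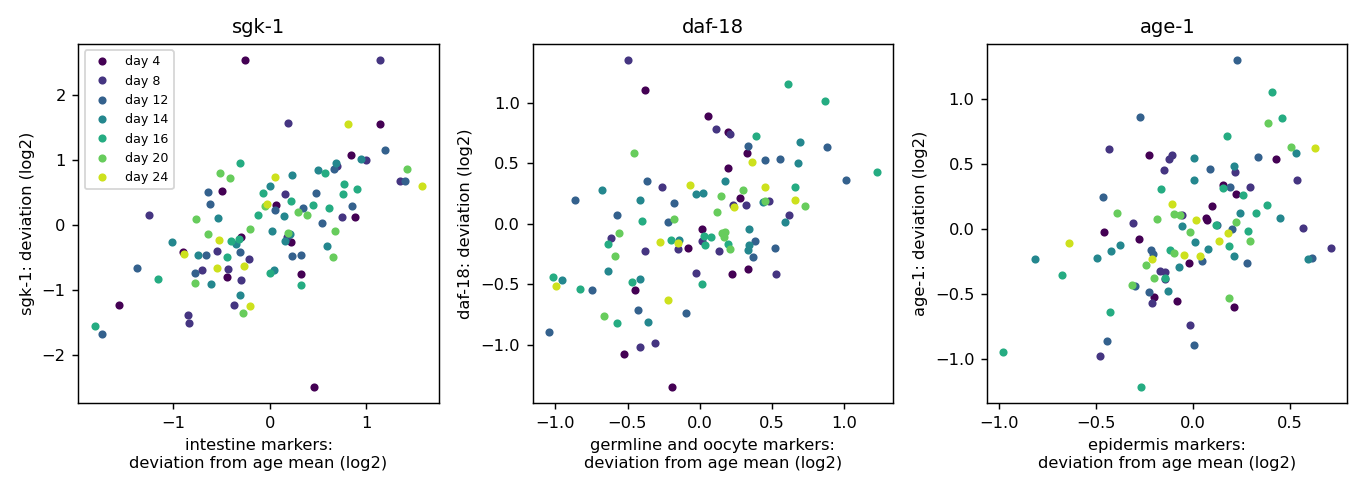
Deviation of each worm from the mean of its age (log2) for sgk-1, daf-18 and age-1 against the mean of the intestinal, germline and oocyte, and epidermal markers, with ages in colour. Each cloud slopes upward, with r of 0.568, 0.476 and 0.433 over all worms.

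Upstream of the receptor, 24 of 39 listed insulin-like peptide genes were measured, with 5 rising and 1 falling over the slope, against 13.2% and 13.5% of all probes. The median slope was 0.0256 per day, with 19 of 24 above 0. Those with the smallest p were ins-22 and ins-23, whose means went from -0.43 and -0.01 at day 4 to 2.26 and 1.84 at day 24 (differences 2.68 ± 0.53 and 1.84 ± 0.47, SE, limma adjusted p = 7.93e-05 and 0.00234). They were followed by ins-31, which fell by 0.0379 per day (adjusted p = 7.54e-05), and ins-34, which rose by 0.0332 (adjusted p = 0.00019). Of these 4 peptides, ins-22 was also higher at day 8 than at day 4 (1.99 ± 0.45, SE, adjusted p = 0.00097), and the others were not called in that step.

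Around the pathway, 42 probes of 27 modulator genes had 2 rises and 5 falls over the slope, against the same shares of all probes. asna-1, which promotes insulin secretion, rose by 0.0494 per day (limma adjusted p = 4.78e-09). A probe of asm-3, an acid sphingomyelinase gene, rose by 3.04 ± 0.39 between days 4 and 8 and fell by 2.68 ± 0.36 between days 8 and 12 (SE, adjusted p = 1.89e-09 and 1.59e-08). The slope of this asm-3 probe was a called fall (-0.107 per day, adjusted p = 0.0003). Falls were also called for rheb-1, a GTPase gene of the TOR pathway (-0.0398 per day, adjusted p = 0.00031), and daf-41, a co-chaperone gene (-0.0391, adjusted p = 0.00131). The median slope of the 42 probes was -0.0017.

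Among 65 probes of 29 measured genes for proteins that act with or on DAF-16, 15 rose and 3 fell over the slope (13.2% and 13.5% of all probes), and the median slope was 0.007. The near-identical kinase genes cst-1 and cst-2, whose probes may share signal, rose by 1.49 ± 0.33 and 1.55 ± 0.33 from day 8 to day 12 (SE, limma adjusted p = 0.00074 and 0.0003). set-26, a chromatin factor gene, was lower at day 24 than at day 4 (-1.45 ± 0.26, SE, adjusted p = 1.58e-05), and prmt-1, an arginine methyltransferase gene, rose by 0.0324 per day (adjusted p = 0.00019). Between days 8 and 12, 11 of the 65 probes rose and 0 fell, against 7.55% and 7.38% of all probes.

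Downstream, genes that DAF-16 activates and genes it represses both had more falls than rises over the slope. Of 36 probes of 28 class 1 genes (activated), 1 rose and 15 fell, and of 22 probes of 19 class 2 genes (repressed), 0 rose and 9 fell, against 13.2% higher and 13.5% lower over all probes. In class 1, 15 of 36 probes were higher and 1 lower at day 8 than at day 4 (median 0.66, 27 of 36 above 0), against 4.92% and 5.74% of all probes. At day 12, 1 was higher and 14 lower than at day 8 (median -0.76, 8 of 36 above 0), against 7.55% and 7.38%. In class 2 the same steps had 4 higher and 3 lower, and 0 higher and 7 lower (medians 0.52 and -0.47). The lysozyme gene lys-8 rose by 1.24 ± 0.40 and fell by 3.20 ± 0.37 in these steps (SE, limma adjusted p = 0.0304 and 1.58e-10). In class 2, the desaturase gene fat-7 fell by 3.28 ± 0.36 and then by 1.59 ± 0.34 (SE, adjusted p = 7.11e-12 and 0.00037), and the protease gene asp-3 fell by 2.48 ± 0.47 in the second step (adjusted p = 5.81e-05). Of the 20 intestinal marker probes, 3 were higher and 1 lower at day 8 than at day 4, and 0 higher and 4 lower at day 12 than at day 8 (median differences -0.08 and 0.04). The mean of the intestinal markers, in contrast, was highest at day 8 of these ages, at -0.36, -0.06 and -0.62 at days 4, 8 and 12. ftn-1 and mtl-2 are listed both as intestinal markers and as targets. The part of the intestine in the target values was not tested.

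The genes whose pattern was most like that of the 4 members' probes with the smallest F test p were sought over all worms, ages included. Nearest to akt-2 b were ttr-51, a transthyretin-related gene (r = 0.624), acs-20, a fatty acyl-CoA synthetase gene (0.583), atgp-1 (0.536), spi-2 (0.525) and the linker histone gene hil-1 (0.525), and 16 probes had an r above 0.5. Nearest to akt-2 a probe 2 were hil-1 (0.623), acl-14 (0.583), acs-20 (0.580), ttr-51 (0.561) and the cystatin gene cpi-1 (0.560), with 31 probes above 0.5. Among them the mean of hil-1, which is also 1 of the class 1 genes, went from 0.13 at day 4 to 2.85 at day 8, and that of acs-20 from -0.37 to 0.86.

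daf-18 and age-1 had far more near neighbours. For daf-18, 597 probes had an r above 0.5, led by the cyclin B gene cyb-2.1 (0.789), the proton pump subunit gene vha-7 (0.780), cpna-3 (0.772), the argonaute gene alg-5 (0.770) and cert-1 (0.768). For age-1 it was 458, led by the MAP kinase kinase gene mkk-4 (0.860), idpc-1 (0.815), hmg-1.1 (0.808), nfki-1 (0.800) and elt-3 (0.791). With the age means taken out, mkk-4 had an r of 0.815 with age-1 and cyb-2.1 one of 0.692 with daf-18. The genes nearest to akt-2 b then had an r of 0.227 to 0.492, and those nearest to akt-2 a probe 2 one of 0.385 to 0.689. All were picked by an r over the same worms that includes differences within ages, so these values are a description. elt-3, a GATA factor gene, is also 1 of the 14 epidermal marker genes, and had an r of 0.754 with age-1 within ages. Its mean was 0.57 at day 4, 1.03 at day 8, 1.36 at day 12 and 1.09 at day 24, beside 0.17, 0.52, 1.20 and 0.88 for age-1.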

How the data were processed

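Single worms were measured on 2-colour arrays, and the values used are the deposited log2 ratios, 1 per probe and array, in 2 identical tables. The submitters' processing notes list limma; its version, the background correction and the normalization are not given there or in the headers. Intensities were not used here. Every age in the table matched the labels. Gene names came from the file's sequence names through RefSeq genes of WBcel235 (21382 of 22490 probes, 95.073%), used for names only.

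limma 3.58.1 in R 4.3.3 fitted every probe to all worms (lmFit, eBayes), with age in days for the slope and age as a factor for the F test, the contrasts and day 4 against the pool. P-values were adjusted over all probes by Benjamini-Hochberg, with calls under 0.05. Relations between worms used gene means over probes, centred by age, with 100000 two-sided permutations within ages. No replicate numbers are in the labels; those printed follow accession order. The methods were tested on simulated data. Alternatives were quantile normalization, array weights, gene means, complete probes, 1 age or worm left out, log2 of age and fits to 2 ages.

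The members, lists and tests were chosen with earlier results of these data known. Genes named from other lists are up to 4 per list with the smallest slope p, a stated set of targets, and the 5 named genes nearest to each of 4 member probes by r. The number of worms limits the precision. Lists of neuron and zygotic embryo markers (37 and 13 probes) had 6 and 4 rises and 3 falls each over the slope. Those of sperm, body wall muscle and epidermis (16, 23 and 18 probes) had 4, 2 and 3 rises and 1, 4 and 5 falls, the intestine list 2 and 5, and the germline and oocyte list 1 and 17.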

Additional observations from a re-analysis of the deposited data

Results flagged for a closer look

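In the 9 worms of day 24, 2 of 23 probes had 1 worm far from the others, by a rule under which chance gives about 1 in 20 groups. For age-1, replicate 2 read 1.5, against 0.64 to 1.06 in the other 8 worms; leaving out each worm in turn kept the call of day 24 against day 4, with differences of 0.63 to 0.76. For akt-1 a, replicate 8 read -3.26, against -2.02 to -0.98 in the others, and this probe was not called over age. Groups of more than 10 worms were not examined in this way.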

How the results depend on the processing

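Of 52 called values of single probes, 575 refits kept direction and call in 504, lost the call in 69 and turned 2: with the mean over the probes of a gene, akt-1 c had a slope of -0.0092 and daf-16 b probe 1 a day 8 to day 4 difference of 0.087. Of 157 values not called, 63 of 1670 refits were called. Counts below are of the 10 genes. Under quantile normalization 0 were lower at day 12 and 1 (pdk-1) lower at day 16, each against day 4. With array weights 3 rose over the slope (6 in the main analysis), 2 rose from day 8 to 12 and 0 were above the pool. With gene means, 0 fell from day 4 to 8, 1 fell from day 8 to 12, 1 was lower at day 16 and 0 were above the pool. With complete probes, 2 rose from day 8 to 12. Without day 4, 1 rose over the slope; without day 8, 3 rose and 1 fell. With only the 2 ages in the fit, 1 gene was higher at day 8 than at day 4 and 0 lower at day 24. Leaving out single worms gave 1 to 4 genes higher and 1 to 1 lower at day 8, and 3 to 5 higher and 1 to 1 lower at day 24. The test of any difference between probes called 1 member probe (2 in the main analysis) under quantile normalization and 1 with array weights. Changes in spread numbered 1 under quantile normalization and 1 around the mean of the age. With quantile normalization the pairs and targets still had 0 called relations and the marker lists 10 against 8. Array weights ended the slope calls of daf-2, age-1 and daf-16 c (0.0377, 0.0227 and 0.0238 per day, limma adjusted p = 0.0646, 0.062 and 0.069), and quantile normalization those of daf-2 and akt-1 c (0.0351 and 0.0258, adjusted p = 0.0881 and 0.0732). The causes were not tested. No paired analysis was possible because the labels give no replicate numbers.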
